A study of Danio rerio with 2 samples.

Results

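The cells described here are olig2-expressing cells of the 28 hpf zebrafish trunk (hpf, hours post fertilization) that carried transcripts of the G2 and M phases of the cell cycle. They were chosen by a rule on raw counts of UMIs (unique molecular identifiers, the tags that mark each captured RNA molecule). A member had at least 1000 genes, under 5% of its UMIs from embryonic hemoglobin genes, at least 5 UMIs of olig2, at least 5 UMIs summed over the mitotic genes top2a, tpx2, nusap1 and cenpf, and at most 2 UMIs of pkd1l2a. Of 7664 cells of the library that passed the gene and hemoglobin limits, 3704 had at least 5 UMIs of olig2, and 799 of these were members. They made up 21.6% of the olig2 cells (exact binomial 95% interval 20.3 to 22.9) and 10.4% of the cells kept. The comparison cells were the other 2905 olig2 cells of the same library.

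Fluorescent cells had been sorted from dissociated, pooled trunks, with heads removed, of Tg(olig2:dsRed) embryos from an outcross to wild-type fish, and were read with the 10x Genomics 3′ chemistry. The dsRed reporter is driven by the olig2 regulatory region and its protein outlasts olig2 expression in progeny of pMN cells. There was 1 library at 28 hpf and 1 at 60 hpf, both of this genotype, and no treatment is named. Those libraries held 10124 and 7905 barcodes with 95108584 and 70432500 UMIs, and 24 barcodes were found in both, of which 1 was a member. Cells of 1 library are not replicates, so no test was possible and none is given. All intervals are exact 95% intervals that cover counting error only, and do not cover the variation between cells, embryos or libraries.

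The pMN domain is the band of ventral spinal cord progenitors that expresses olig2 under Hedgehog signaling and gives rise to motor neurons and later to oligodendrocyte precursors. A dividing progenitor copies its DNA in S phase and prepares for division in G2. In mitosis cyclin B and Cdk1 drive spindle assembly, and the anaphase-promoting complex ends the division. Notch signaling holds neighbouring progenitors undifferentiated, while cells that raise Delta ligands and proneural factors leave the cycle as neurons.

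The genes of the rule chose the cells, so their values are given as a description. A level is the sum of a gene's UMIs over a class per 10000 UMIs of that class, and levels are compared within a gene only, since 3′ counts are not set against gene length. Olig2 ranged from 5 to 211 UMIs per member with a median of 28. The mitotic sum had a median of 12, and 511 members (64%) held UMIs of all 4 mitotic genes, while 2 held those of a single one. The level of tpx2, a spindle assembly factor, was 2.9 in members and 0.4 in the comparison cells, and that of top2a, the topoisomerase that untangles chromosomes, was 1.87 against 0.24. Just inside the threshold, 54 members had a mitotic sum of 5, and just outside, 73 cells had a sum of 4. For olig2, 27 members had 5 UMIs, and 43 cells that met the other limits had 4. For pkd1l2a, 5 members had 2 UMIs and 6 cells that met the other limits had 3. A further 189 olig2 cells had a mitotic sum of at least 5 but more than 2 UMIs of pkd1l2a, a gene of cerebrospinal fluid-contacting neurons. The rule leaves them among the comparison cells, where they add mitotic transcripts.

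The comparison cells were therefore also divided into 3 classes. The S class (527 cells) had a mitotic sum under 5, at most 2 UMIs of pkd1l2a and at least 5 UMIs summed over pcna, the replication clamp, and mcm2 to mcm7, the replicative helicase. The low class (1837 cells) had under 5 UMIs of both sets and at most 2 of pkd1l2a. The pkd1l2a class (541 cells) had more than 2 UMIs of that gene. Members held 2279 to 76609 UMIs per cell with a median of 11179, against medians of 6865 in all comparison cells, 9286 in the S class, 5818 in the low class and 15311 in the pkd1l2a class. Members were thus 1.63 times deeper than the comparison cells and 1.2 times deeper than the S class. The rule counts raw UMIs, which a deep cell reaches more easily. Applied to cells thinned to 2000 UMIs, with limits of 2 UMIs, it chose cells 1.35 times deeper than the other olig2 cells.

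The label of a pMN progenitor was read against sox2, nes and a sum of neuronal genes. These markers do not separate pMN progenitors from other ventral progenitors. Genes of the floor plate and of V3 interneurons are given with the patterning genes below. Sox2, a factor of neural progenitors, had at least 1 UMI in 88.4% of members. It did so in 82.7% of the S class and 59% of the low class, both shallower. In cells thinned to 2000 UMIs the shares were 39.3% (35.9 to 42.8), 36.1% (31.95 to 40.3) and 32.2% (30 to 34.4). The sox2 level was 2.58 (2.49 to 2.68) in members, 2.22 (2.1 to 2.35) in the S class and 2.07 (1.99 to 2.15) in the low class. The level of nes, which encodes the progenitor filament nestin, was 2.58, 2.77 and 5.11. The summed level of 15 neuronal genes was 23 in members, 24.4 in the S class and 46.2 in the low class. Members were close to the S class in nes and in the neuronal sum and below the low class in both. After thinning, a UMI of nes was found in 31.8% (28.6 to 35.1) of members, 33.2% of the S class and 52.3% of the low class. Nes is a progenitor gene, so beside the low class it went against the label. The interval of their sox2 level lay above those of both classes, while that of their thinned sox2 share overlapped the S class.

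Markers of other tissues were present in all classes. Summed over 12 erythroid genes the level was 13.9 in members and 18.5 in the comparison cells, with none of the genes at 0 in members. Over 15 muscle genes it was 0.688 and 1.13, again with none at 0, and 1 comparison cell alone held 469 muscle UMIs. Over 12 skin genes, of which 2 were at 0, it was 5.16 and 3.84, and over 13 mesenchyme genes 1.86 and 1.78. Within the comparison cells the skin level was 6.085 in the S class, above that of members, and 2.98 in the low class. Notochord, endothelium and neural crest genes were at 1.66, 0.175 and 0.322 in members and 1.75, 0.173 and 0.326 in the comparison cells. Over 10 immune genes, of which 1 was at 0, it was 0.0699 and 0.053.

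Genes of mitosis that the rule did not use were high in the members. A gene was called higher or lower when its level differed at least 2-fold between groups that together held at least 50 of its UMIs. Against all comparison cells, 3.86% of 14412 genes were called higher and 7.47% lower. Of 19 kinases and cyclins of mitotic entry, 16 were higher and none was lower, with a median log2 ratio of 2.31, where the median over all genes was -0.08. Of 35 spindle and kinetochore genes, 32 were higher (median 2.34). Of 15 genes of the chromosomal passenger complex and cytokinesis, 14 were higher (median 2.65) and 1, birc5b, was lower. These genes act in the same phase as the genes that chose the cells and were measured in the same cells, so their direction is a description of the group.

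Against the S class, 3.45% of 11083 genes were called higher in members and 1.04% lower, and against the low class 6.5% of 12176 were higher and 2.79% lower. Of 17 mitotic kinases and cyclins measured against the S class, 16 were higher (median 2.68), and of 35 spindle genes 28 (median 2.21). Against the low class the counts were 16 of 18 (median 3.27) and 33 of 35 (median 3.33).

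**Figure D1:**
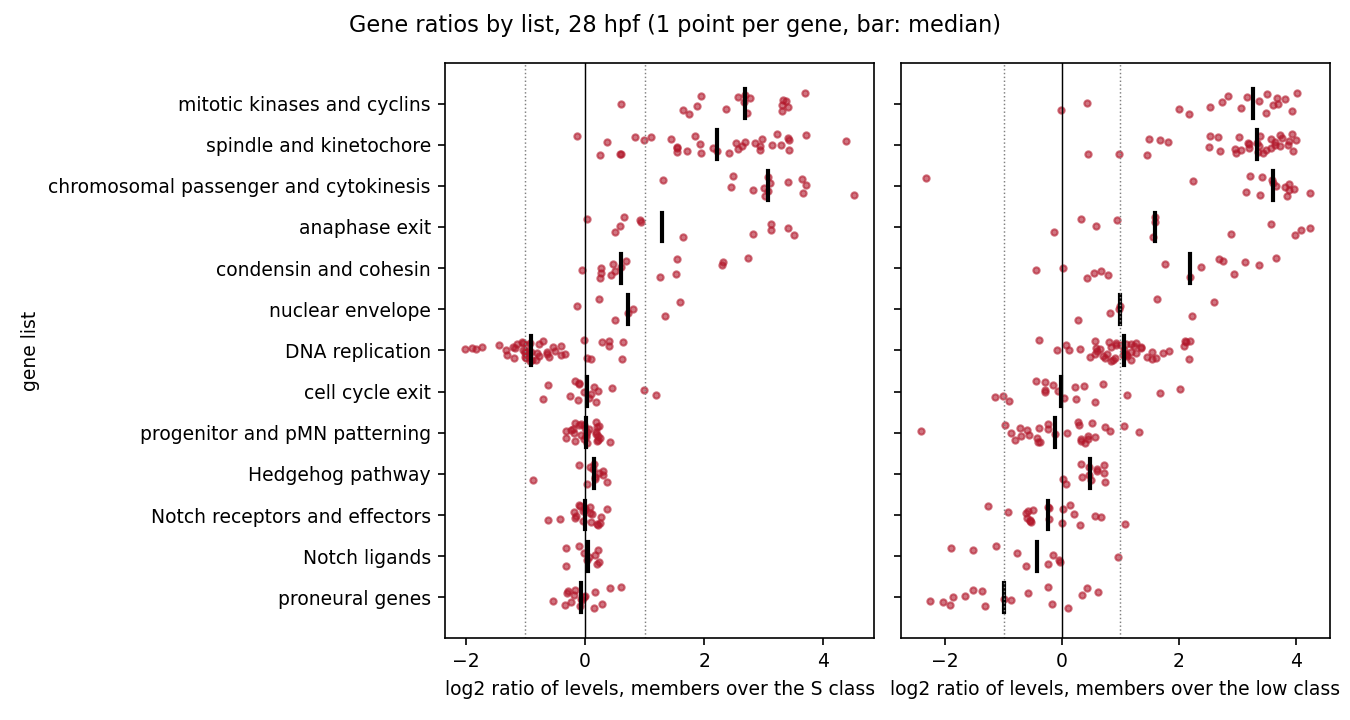
Log2 ratio of levels in the G2/M members over the S class and over the low class at 28 hpf, with 1 point per gene in the lists on the vertical axis, a black bar at the median of each list and dotted lines at 2-fold. The mitotic lists lie to the right in both panels, while DNA replication has a median of -0.91 over the S class and 1.06 over the low class. That list holds pcna and the mcm genes, on which both classes were cut.

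Among the kinases, aurka, which matures centrosomes, had 0 to 11 UMIs per member with a median of 1. Its level was 0.984 (0.924 to 1.05) in members, 0.0745 (0.0539 to 0.1) in the S class and 0.0602 (0.0472 to 0.0757) in the low class. Plk1, the polo-like kinase, was at 1.25 (1.18 to 1.32), 0.125 (0.0976 to 0.157) and 0.0808 (0.0656 to 0.0985). Cdk1, the kinase partner of cyclin B, was at 0.704, 0.0693 and 0.0536. The intervals of the members lay above those of both other classes for aurka and plk1. Some regulators of mitotic entry did not follow. Pkmyt1, an inhibitory kinase of Cdk1, had a log2 ratio over the comparison cells of 0.027, and the phosphatases cdc25b and cdc25d had 0.72 and -0.79. The value of cdc25d depended on the pkd1l2a class. Over the S and low classes together, 18 genes of this list had enough UMIs, and the lowest ratio was that of pkmyt1 (-0.0039).

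Among the spindle genes, kif11, the kinesin that pushes spindle poles apart, was at 0.969 (0.91 to 1.03) in members, 0.045 (0.0294 to 0.066) in the S class and 0.0651 (0.0516 to 0.0812) in the low class. The log2 ratio over the S class was 3.71 for cenpe, a kinetochore motor, and 0.84 and -0.13 for cenpk and cenph of the inner kinetochore. The tubulins tuba8l4 and tubb2b, with log2 ratios over the comparison cells of 0.84 and 0.37, and zwilch, with 0.43, were the 3 spindle genes under 2-fold there. Prc1a, which bundles the microtubules of the central spindle for cytokinesis, was at 0.636 (0.588 to 0.686), 0.0485 (0.0322 to 0.0701) and 0.033 (0.0236 to 0.0449). The lower gene, birc5b, rested on 14 UMIs in members and 124 in the comparison cells, while its paralog birc5a, the survivin subunit of the passenger complex, had a log2 ratio of 2.66.

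The genes with at least 200 UMIs that the rule did not use were ranked by their log2 ratio against the comparison cells. The 12 highest ratios were those of prc1a (3.0), gtse1 (2.98), melk (2.96), kif11 (2.94), prc1b (2.92), pif1 (2.9), aurka (2.88), aspm (2.87), g2e3 (2.86), prr11 (2.84), si:ch211-266i6.3 (2.84) and fbxo5 (2.84). Aspm encodes a spindle pole protein, pif1 a DNA helicase and fbxo5 an inhibitor of the anaphase-promoting complex.

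Of 12 genes of anaphase and mitotic exit, 7 were higher over the comparison cells (median 1.28). They included ube2c, the ubiquitin-conjugating enzyme of the anaphase-promoting complex, with a level of 2.08 in members and 0.18 in the S class, and cdc20, its mitotic activator, with 1.65 and 0.189. The core subunit anapc11 and fzr1a, the activator used after mitosis, had log2 ratios over the comparison cells of 0.12 and 0.072.

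Condensin and cohesin genes differed within their list, of which 9 of 15 were higher over the comparison cells (median 1.59). The higher genes were the subunits of condensin, which compacts mitotic chromosomes, together with mki67, which coats them. Examples were ncaph (2.48), ncapg (2.29), smc2 (2.11) and ncaph2 (1.59). The genes of cohesin, which holds sister chromatids together, stayed under 2-fold, with smc3 at 0.64, rad21a at 0.59, smc1al at 0.49 and stag2b at 0.32, as did the cohesin loaders nipbla (-0.053) and nipblb (-0.30). Over the S class the condensin I subunits ncapg and ncaph had log2 ratios of 2.32 and 2.29, and the condensin II subunits ncapg2 and ncaph2 had 0.47 and 0.61.

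Mki67 had 0 to 31 UMIs per member with a median of 6, and its level was 5.37 (5.23 to 5.52) in members, 0.805 (0.734 to 0.882) in the S class and 0.422 (0.386 to 0.46) in the low class. With every cell thinned to 2000 UMIs, so that depth is equal, a UMI of mki67 was found in 63.6% (60.1 to 66.9) of members, 12.3% (9.65 to 15.4) of the S class and 5.91% (4.87 to 7.09) of the low class. It was found in 2.23% (1.46 to 3.26) of reference neurons without olig2, an upper limit for background in genes that neurons lack, since the mitotic sum reached 43 UMIs in these cells. Before thinning these shares were 96.2%, 37.4%, 13.3% and 6.09%.

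The nuclear envelope genes followed in part, with 3 of 7 higher over the comparison cells. Lbr, the lamin B receptor that ties chromatin to the inner nuclear membrane, had 0 to 15 UMIs per member with a median of 2, and its level was 2.08 (1.99 to 2.17) in members, 0.688 (0.622 to 0.759) in the S class and 0.341 (0.309 to 0.376) in the low class. After thinning, 38.7% (35.3 to 42.1) of members, 13.5% (10.7 to 16.7) of the S class, 6.62% of the low class and 2.06% of the neurons had a UMI of lbr. Tmpoa, of the inner nuclear membrane, had a log2 ratio over the comparison cells of 1.71 and banf1, which links chromatin to that membrane, 1.03. The lamins lmnb1, lmnb2 and lmna had 0.93, 0.80 and 0.53.

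Among the abundant chromatin proteins, the high mobility group gene hmgb2a had 7 to 175 UMIs per member with a median of 47. Its level was 39.6 (39.2 to 39.97) in members, 17.6 (17.3 to 18) in the S class and 11.8 (11.6 to 12) in the low class. Hmgn2 and hmgb2b had log2 ratios over the comparison cells of 1.32 and 1.15, while hmgb3a had -0.012 and the histone chaperone gene anp32e 0.087.

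**Figure D2:**
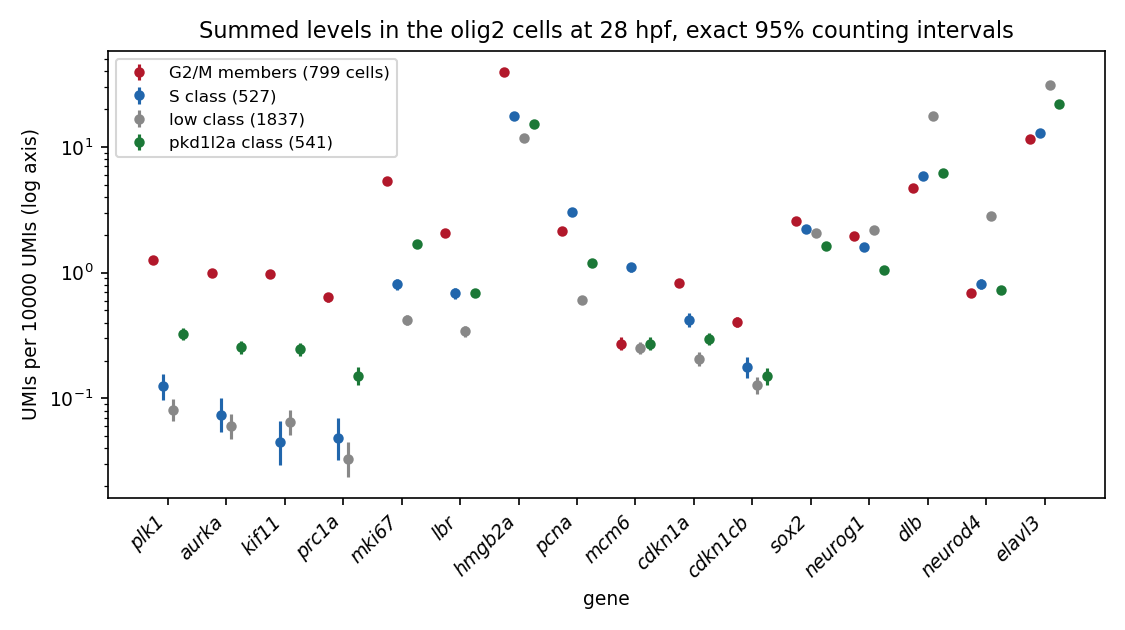
Summed level (UMIs per 10000 UMIs, log axis) of 16 genes in the G2/M members, the S class, the low class and the pkd1l2a class at 28 hpf, with exact 95% counting intervals. Members lie above the S and low classes for plk1, aurka, kif11, prc1a, mki67, lbr, hmgb2a, cdkn1a and cdkn1cb, and below the S class for pcna and mcm6. Pcna and mcm6 are among the genes on which the S class was chosen.

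Of 47 DNA replication genes, 4 were higher against the comparison cells, namely cdc45 (1.49), rrm2 (1.45), gins3 (1.39) and chaf1a (1.28), and none was lower. Against the S class none was higher and 17 of 46 were lower, and against the low class 26 of 47 were higher. Over all genes, 3.86% were higher against the comparison cells, 1.04% lower against the S class and 6.5% higher against the low class. The S class was chosen on at least 5 UMIs of pcna and the mcm genes, and the low class on fewer. Those 7 genes are thus high in the S class and low in the low class by choice. The counts of this list include them. Of the 7, 6 were lower against the S class and 3 were higher against the low class. The level of mcm6, a helicase subunit, was 0.273 in members, 1.1 in the S class and 0.252 in the low class. Pcna was at 2.14 (2.06 to 2.23), 3.05 (2.91 to 3.19) and 0.601 (0.558 to 0.646). Members lay between both classes, which were cut on this gene in opposite directions, so this order is a description of the cuts. Rrm2, the small subunit of ribonucleotide reductase, was highest in members of these 3 classes. Its identifier with most UMIs was at 4.95 (4.82 to 5.09), 3.23 (3.08 to 3.38) and 1.1 (1.04 to 1.16). Summed over its identifiers, rrm2 was at 6.71 (6.55 to 6.87), 4.32 (4.15 to 4.49) and 1.54 (1.47 to 1.61). Slbp, which binds the stem-loop of histone mRNA, was at 0.818 in members and 0.764 in the S class.

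Core histone transcripts, which are needed to package newly made DNA, were grouped after their values had been seen. Of 44 gene identifiers whose symbol starts with hist and a digit, 43 had enough UMIs, and 41 of these were higher in members than in the comparison cells (median log2 ratio 2.09). Against the S class 40 of 42 were higher (median 2.29). Their summed level was 42.2 (41.8 to 42.6) in members, 9.04 (8.8 to 9.29) in the S class, 6.17 (6.03 to 6.31) in the low class and 15.3 (15 to 15.5) in the pkd1l2a class. Members held 0 to 303 histone UMIs per cell with a median of 45, against medians of 4 in the S class and 2 in the low class. After thinning to 2000 UMIs the median was 8 in members, of which 6.01% held none, and 1 in each other class. Many of these genes are near-identical copies, so how reads were divided among identifiers is uncertain. Most replication-dependent histone mRNAs end in a stem-loop in place of a poly(A) tail, and the chemistry used here captures poly(A) RNA, so these are levels of what was captured.

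**Figure D3:**
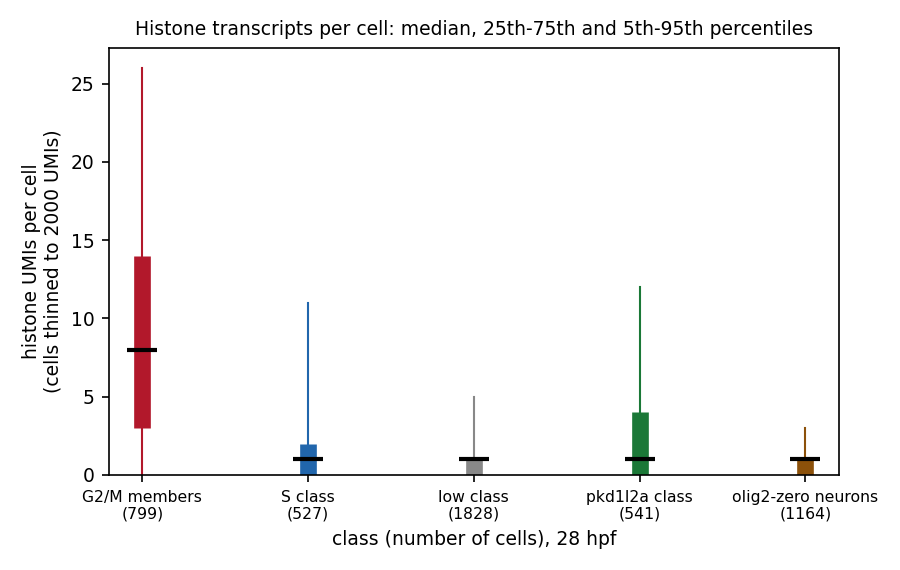
Histone UMIs per cell after thinning each cell to 2000 UMIs, by class at 28 hpf; the dash is the median, the thick bar spans the 25th to the 75th percentile and the thin line the 5th to the 95th. Members have a median of 8 and every other class, neurons without olig2 included, a median of 1.

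The members were not uniform. A late mitosis score was taken as the UMIs of ccnb1, cdc20, plk1, aurka, ube2c and kif20a in a cell, and an S score as those of pcna and mcm2 to mcm7. With a limit of 5 UMIs on each, 407 members (50.9%, interval 47.4 to 54.5) were high in the late score only. Another 216 (27%, interval 24 to 30.3) were high in both scores, 77 (9.64%, interval 7.68 to 11.9) in the S score only and 99 (12.4%, interval 10.2 to 14.9) in neither. These are ranges of continuous scores and not cell types. The median depth was 16656 UMIs in members high in both scores, 12744 in those high in the S score only, 9389 in those high in the late score only and 7607 in those low in both, and the part of depth in this division was not tested.

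The groups also differed in genes outside the scores. From members high in the S score only, through those high in both, to those high in the late score only, the level of ccna2, cyclin A, was 0.442, 0.777 and 1.21. In the same order, kif11 was at 0.247, 0.841 and 1.31, hmgb2a at 28.7, 35.3 and 46.7, and slbp at 1.12, 1.02 and 0.538. So ccna2, kif11 and hmgb2a were highest, and slbp lowest, in the members high in the late score only. Histone transcripts were at 40.2, 39.8 and 42.3 in these groups and at 55.8 (54.2 to 57.4) in the members low in both scores. Over the members thinned to 2000 UMIs, Spearman's rho was 0.37 between the mitotic sum and the late score, -0.11 between the late and S scores, and -0.015 between the late score and the histone UMIs. These are descriptions over 799 sparse cells of 1 library.

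**Figure D4:**
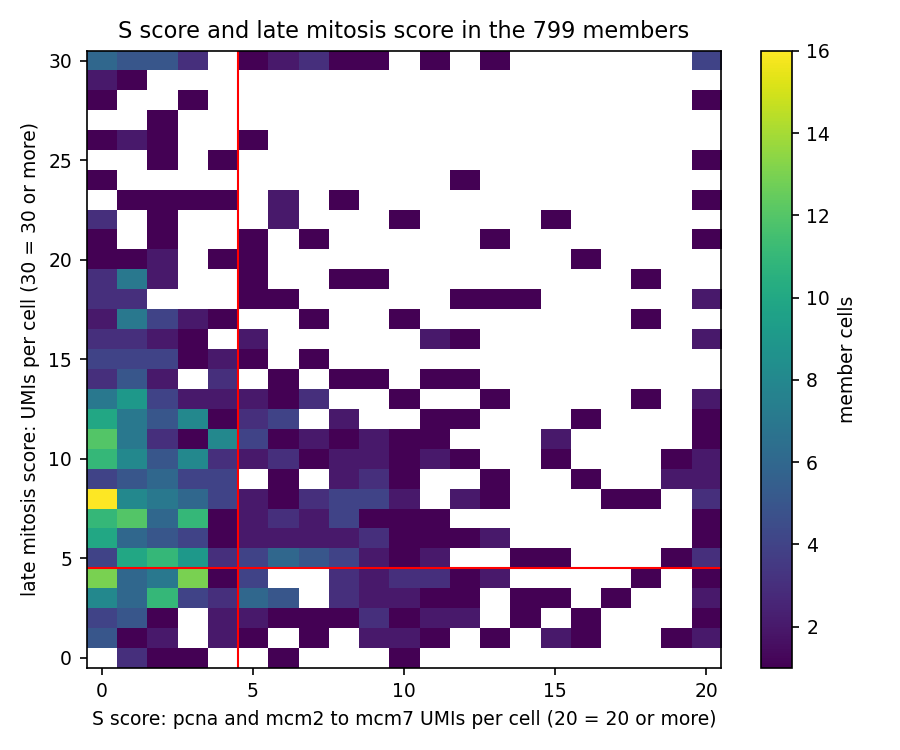
Number of G2/M members at each S score (horizontal, UMIs per cell) and late mitosis score (vertical, UMIs per cell), with red lines at the limit of 5 UMIs and all higher values in the last row and column. The upper left quadrant, high in the late score only, holds 407 of the 799 cells.

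Of 18 genes of cell cycle exit, 2 were higher against the comparison cells and none was lower (median -0.021), where 3.86% and 7.47% of all genes were. Both encode inhibitors of cyclin-dependent kinases. Cdkn1a, which encodes p21, had 0 to 18 UMIs per member with a median of 0, and was at 0.834 (0.779 to 0.891) in members, 0.419 (0.368 to 0.475) in the S class and 0.205 (0.181 to 0.232) in the low class. Cdkn1cb, of the p57 group, was at 0.406 (0.368 to 0.446), 0.177 (0.144 to 0.214) and 0.127 (0.108 to 0.149). For both genes the intervals of the members lay above those of the other classes. After thinning, a UMI of cdkn1a was found in 13% (10.8 to 15.6) of members, 7.59% (5.48 to 10.2) of the S class, 3.67% of the low class and 0.945% of the neurons. For cdkn1cb these shares were 9.14% (7.23 to 11.3), 2.47% (1.32 to 4.18), 2.57% and 1.8%. With cells thinned to 1000 UMIs, the intervals of members and S class overlapped for both genes. Cdkn1a was then found in 8.39% (6.56 to 10.5) and 4.74% (3.09 to 6.92), and cdkn1cb in 3.5% (2.34 to 5.03) and 1.9% (0.914 to 3.46). The related cdkn1ba, cdkn1bb and cdkn1ca had log2 ratios over the comparison cells of 0.035, -0.077 and -0.13, and the antiproliferative gene btg2 had -0.027. In the 106 members with at least 3 UMIs of cdkn1a the late score was at 6.4 (6.01 to 6.81), and in the 465 with none at 9.26 (9.01 to 9.52). The median depths of these groups were 12913 and 10525 UMIs, and the part of depth in this difference was not tested. The summed level of 17 genes induced by dissociation was 102.5 in members, 96.3 in the S class and 80.9 in the low class, with none of them at 0, and their part in the cdkn1a level was not tested.

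No patterning or Hedgehog gene was called against the S class, where few genes of any kind were. Of 29 progenitor and pMN patterning genes none was higher against the comparison cells and 3 were lower, where 7.47% of all genes were. These were sox1a (-2.75), sox1b (-1.95) and olig4 (-1.68), with a median of -0.034. Over the comparison cells with low pkd1l2a these 3 genes had -0.38, 0.28 and -2.0, so sox1a and sox1b were lower only where the pkd1l2a class was included, and sox1b changed sign without it. Against the S class 0 of 28 were called in either direction, where 3.45% of all genes were higher and 1.04% lower. Pax6a and pax6b, which set progenitor domains, had log2 ratios over the comparison cells of 0.71 and 0.81, and the ventral factor nkx6.1 had -0.84. Of 13 Hedgehog genes none was higher and 1, the ligand gene shhb, was lower on 3 UMIs in members (median 0.50). The transducer smo had a log2 ratio over the comparison cells of 0.73, and the transcription factors gli1, gli2a and gli3 had 0.57, 0.59 and 0.68, while over the S class these 4 genes had 0.36, 0.13, 0.30 and 0.24. Of 8 floor plate genes and 5 V3 interneuron genes measured against the S class, none was called (medians -0.18 and 0.21). With so few genes and such small shares over all genes, the absence of calls does not set these lists apart from other genes. Against the low class 1 of 8 and 1 of 5 were higher, namely ntn1b (1.16) and nkx2.2a (1.055). None was lower there, and over all genes 6.5% were higher and 2.79% lower.

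The Delta ligands dla, dlb and dlc were lower in members than in the low class. Dlb had 0 to 121 UMIs per member with a median of 1, and its level was 4.72 (4.59 to 4.86) in members, 5.9 (5.7 to 6.1) in the S class and 17.7 (17.5 to 17.9) in the low class. Dla was at 7.88, 8.43 and 17.2. After thinning, 37.3% (33.9 to 40.8) of members, 37.8% (33.6 to 42) of the S class and 67.2% (65 to 69.4) of the low class had a UMI of dlb. Before thinning this share was 65.5% in members and in the S class. The intervals of members and S class overlapped for the thinned share but not for the dlb level, which was lower in members. The interval of a level does not cover the variation between cells, so a few cells with many UMIs can move it. Without predicted doublets, described below, the dlb level was 3.4 in members and 4.99 in the S class. The neurons are no background for dlb, since they expressed it, at a level of 9.33. Of 10 ligand genes measured against the low class, 3 were lower and none was higher, where 2.79% and 6.5% of all genes were. Of 20 Notch receptors and effectors none was called against the comparison cells (median -0.031), where 3.86% of all genes were higher and 7.47% lower. The receptors notch2, notch3 and notch1a had log2 ratios there of 0.84, 0.44 and -0.14, and the effectors her9 and her4.1 had 0.68 and -0.070.

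Of 17 proneural genes none was higher and 5 were lower over the comparison cells (median -0.85), where 3.86% and 7.47% of all genes were. Against the S class none was called (median -0.071), where 3.45% of all genes were higher and 1.04% lower. The lower genes were neurod1 (-1.6), insm1a (-1.52), neurod4 (-1.26), nhlh2 (-1.24) and insm1b (-1.16), which act as neurons are born. Neurod4 was at 0.691 (0.641 to 0.744) in members, 0.812 (0.741 to 0.889) in the S class and 2.84 (2.75 to 2.94) in the low class. The earlier factors neurog1 and ascl1a were closer to the low class than neurod4 was, and their levels lay above those of the S class. Neurog1 was at 1.96 (1.87 to 2.04), 1.6 (1.5 to 1.71) and 2.2 (2.12 to 2.28), and ascl1a at 0.704, 0.461 and 0.834. After thinning, a UMI of neurog1 was found in 26% (23 to 29.2) of members, 20.9% (17.5 to 24.6) of the S class, 24.8% (22.9 to 26.9) of the low class and 2.23% of the neurons, and the intervals of the members overlapped those of both other olig2 classes.

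With all members kept, those with neurog1 had higher levels of the Delta ligands dla, dlb and dld, and of the progenitor gene sox2. This split was chosen after the data had been seen. Neurog1 had at least 3 UMIs in 225 members (28.2%) and none in 387 (48.4%), with median depths of 12037 and 10946 UMIs. The part of depth in the differences that follow was not tested. Dla was at 10.01 (9.66 to 10.4) with neurog1 and 6.11 (5.89 to 6.33) without. In the same order dld was at 2.71 (2.53 to 2.9) and 1.03 (0.938 to 1.12), and neurod4 at 1.21 (1.09 to 1.34) and 0.366 (0.314 to 0.424). For these 3 genes the intervals did not overlap. Nor did they for dlb, at 5.5 (5.24 to 5.77) and 3.67 (3.5 to 3.85), or sox2, at 3.49 (3.28 to 3.7) and 2.05 (1.93 to 2.19). Insm1a, at 1.39 and 0.783, and notch1a, at 4.37 and 3.89, were also higher with neurog1, while the intervals of hes6 overlapped. Olig2, which the rule used and which is given as a description, was at 40.6 and 19.3. The late score was at 8.56 (8.24 to 8.9) and 7.72 (7.48 to 7.98) and the S score at 3.74 and 3.67. The neuronal gene elavl3 was at 10.7 (10.4 to 11.1) and 11 (10.7 to 11.3), with overlapping intervals. Predicted doublets, described below, made up 16.9% and 8.53% of these members. Without them dla was at 10.3 (9.87 to 10.7) and 5.88 (5.64 to 6.11). Dlb, sox2, insm1a and notch1a were not read without them. Among all members, dlb was at 10.35 in predicted doublets and 3.4 in the others. In the same order insm1a was at 1.93 and 0.804, and sox2 at 1.81 and 2.765. The Notch target her4.1 was at 6.32 (6.04 to 6.61) and 6.52 (6.29 to 6.75) with all members, where the intervals overlapped, and at 6.07 (5.75 to 6.41) and 6.92 (6.67 to 7.17) without predicted doublets, where they did not.

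**Figure D5:**
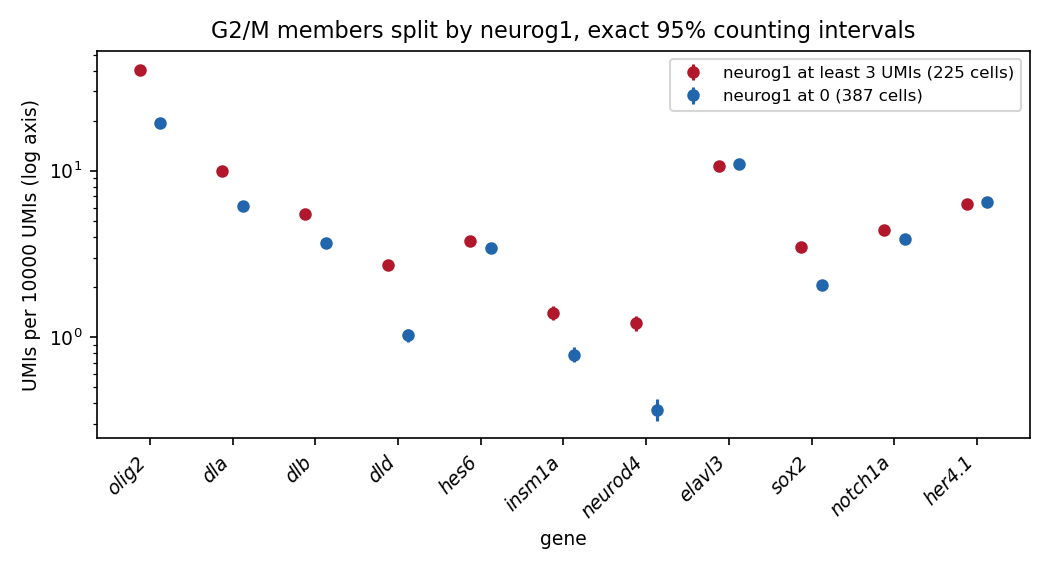
Levels of 11 genes (UMIs per 10000 UMIs, log axis) in members with at least 3 UMIs of neurog1 and in members with none, with exact 95% counting intervals. Dla, dlb, dld, insm1a, neurod4, sox2 and notch1a are higher with neurog1, as is olig2, a gene of the rule. All members are shown, and dlb, insm1a, sox2 and notch1a were not read without predicted doublets. The intervals of hes6 and elavl3 overlap, as do those of her4.1 as long as predicted doublets are kept.

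The hox13 genes mark the tail end of the body axis, and 100 members (12.5%) had at least 3 UMIs of them, against 11.6% of the S class and 7.62% of the low class, which were shallower. After thinning to 2000 UMIs, at least 1 such UMI was found in 11.1% (9.04 to 13.5) of members, 9.87% (7.46 to 12.7) of the S class and 9.57% (8.26 to 11) of the low class, with overlapping intervals. The median depth was 13054 UMIs in the members with at least 3 hox13 UMIs and 10776 in those with none, and the part of depth in the differences that follow was not tested. In the first group her4.1 was at 11.2 (10.7 to 11.7), and in the 619 members with no hox13 UMI at 5.52 (5.36 to 5.69). Neurog1 was at 1.23 (1.06 to 1.42) and 2.16 (2.06 to 2.27), hes6, an antagonist of Hes repressors, at 2.52 (2.28 to 2.79) and 3.84 (3.7 to 3.98), and the late score at 6.51 (6.11 to 6.93) and 8.74 (8.53 to 8.95). Her4.1 was thus higher in the members with hox13, and neurog1, hes6 and the late score were lower. Without predicted doublets her4.1 was at 12.2 and 5.64.

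Outside the genes of the rule, the 12 genes of at least 200 UMIs with the lowest ratios over the comparison cells were tal2, lrfn4b, sst1.1, slc6a1b, zfpm2b, kcnab1a, flj13639, gad1a, RASGRF1, slc32a1, bicdl2l and gad2. Gad1a and gad2 make the inhibitory transmitter GABA, slc32a1 loads it into vesicles and slc6a1b takes it up. Tal2, a factor of GABA neurons, had 0 UMIs in members and 274 in the comparison cells. The level of sst1.1, a somatostatin, was 0.106 in members, 0.168 in the S class and 14.6 in the pkd1l2a class, which the rule keeps out of the members. All 12 measured genes of V2b and cerebrospinal fluid-contacting neurons were lower over the comparison cells (median -4.31), and 1 of 11 over the 2364 comparison cells with low pkd1l2a (median -0.54). Against those cells 4.18% of 13047 genes were higher in members and 1.71% lower.

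Neuronal genes in members went with predicted doublets, droplets that may hold RNA of 2 cells. No cell was removed for this in the values above, except where stated. A score built on simulated doublets marked 563 of 8390 cells, among them 92 members (11.5%, interval 9.38 to 13.9), 8.92% of the S class, 3.97% of the low class and 29.6% of the pkd1l2a class. The score was computed from the same counts, neuronal genes included, so a member with many neuronal UMIs can score high for that reason. The values that follow are thus a description of the marking. The summed level of neuronal genes was 48.1 in the marked members and 17.1 in the others. Over the comparison cells with low pkd1l2a, the median log2 ratio of the neuronal list was -0.23 with all cells and -0.86 without the marked ones (an alternative chosen after seeing the data), and the number of lower genes was 223 and 600. Of 13 motor neuron genes measured against the low class, 3 were lower and none was higher, where 2.79% and 6.5% of all genes were. For isl1, a motor neuron factor, the log2 ratio over the comparison cells with low pkd1l2a was -1.02 and -1.85 without the marked cells. For aurka it was 3.91 and 4.04, and the histone level of members was 45.9.

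At 60 hpf the same rule chose 88 of 1131 olig2 cells, or 7.78% (6.29 to 9.5), against 21.6% at 28 hpf. A difference between stages is here one between single libraries, and the sources cannot be told apart. Against the other olig2 cells of 60 hpf, 4.28% of 11641 genes were higher and 4.69% lower. Of 14 mitotic kinases and cyclins 13 were higher (median 3.94), and of 26 spindle genes 23 (median 3.89). Plk1 was at 0.752 against 0.0432, lbr at 1.71 against 0.262 and the histone transcripts at 31.6 (30.8 to 32.4) against 4.07 (3.96 to 4.18). Cdkn1a was at 0.218 against 0.0634, with a log2 ratio of 1.8 (1.2 to 2.34), next to 1.56 (1.42 to 1.7) at 28 hpf.

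The named genes, some of them added after the data were seen, numbered 132 measured at both stages. Of these, 35 were at least 2-fold higher in members at 28 hpf, and 33 of the 35 also at 60 hpf. Of 38 that were lower at 28 hpf, 16 were also lower at 60 hpf, and none was higher there. The same rule chose the cells at both stages, and genes were named in part for their ratios at 28 hpf. The overlap of mitotic genes is thus a description. Of 17 proneural genes none was called at 60 hpf (median -0.21). Of 12 Hedgehog genes 4 were higher (median 0.93), among them boc, a co-receptor, at 1.14 and gli1 at 1.09. Of 15 radial glia and oligodendrocyte genes, 8 were lower in the dividing cells of 60 hpf and 1, slc1a3a (1.14), was higher. The list pools both kinds of gene, and the lowest was the myelin gene mbpa (-5.6). Over all genes at 60 hpf, 4.28% were higher and 4.69% lower.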

How the data were processed

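Single cell libraries of sorted Tg(olig2:dsRed) trunk cells at 28 hpf and 60 hpf were analysed. Each deposited matrix gives UMI counts for a gene in a cell. The authors produced them with Cell Ranger 5.0.0 and applied no normalization to them. The submitters' processing notes name the build GRCz11, and the annotation is not given in the sources used here. Barcode and gene name files hold no measurement and gave cells and symbols as deposited. Cells were not replicates, so no test was made and no p-value is given.

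The members and lists were chosen with earlier results of these data known. Levels are summed UMIs per 10000 UMIs with exact Poisson intervals. Log2 ratios had a pseudocount of 1 UMI and exact intervals conditional on the total, and shares had exact binomial intervals (95%). Symbols with several identifiers were read at the identifier with most UMIs in ratios and in class levels of named genes. They were summed over identifiers in scores, shares and splits. The 6 genes of the rule were left out of gene counts, lists and rankings. Named genes were those with at least 200 UMIs and the 12 highest or lowest ratios over the comparison cells, 4 per list by size, and genes of the study. To these were added, after the data were seen, the 12 highest and lowest over the comparison cells with low pkd1l2a, and single chosen genes. The histone group, the thinned hox13 shares, the splits by neurog1, cdkn1a and hox13 and other genes of lists printed in the text were added after the data were seen. Reference neurons had no olig2 and at least 20 UMIs of 5 neuronal genes. For shares, cells were thinned to 2000 UMIs (9 low class cells and 1 neuron were shallower), or to 1000 UMIs where stated. Doublets were scored with Scrublet in scanpy 1.11.5, taking the top 6.71% of cells, 0.8% per 1000 cells. Other steps used Python 3.11.15, numpy 2.4.6 and scipy 1.17.1, and figures matplotlib 3.10.9. The alternatives were gene and mitochondrial limits, doublet removal, other UMI limits in the rule, thinning, depth-matched comparison cells, a mean over cells, other totals, minima and folds. The ratio rule was tested on simulated data. Promoter motifs were planned and not run, since no sequence was used here. The 42 hpf stage was not analysed here.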

Additional observations from a re-analysis of the deposited data

How the results depend on the processing

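Counts and medians are those of members over all comparison cells unless stated. The rule chose 697 cells when cells over 4000 genes or 20% mitochondrial UMIs were left out, 707 without predicted doublets, 868 and 691 with at least 3 and 10 UMIs of olig2, and 948 and 528 with a mitotic sum of at least 3 and 10. On cells thinned to 2000 UMIs, with limits of 2 UMIs, it chose 548, of which 452 were members, and the depth ratio was 1.35. Higher and lower genes numbered 1347 and 2595 at 1.5-fold, and 323 and 581 with at least 200 UMIs. Lower genes numbered 223 against cells with low pkd1l2a, 129 against those within the 25th to 75th percentile of the depth of the members and 600 against those with predicted doublets removed. These last 2 settings were chosen after seeing the data.

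The median log2 ratio of mitotic kinases and cyclins was 2.93 with the limit on genes, 2.66 without doublets, 2.92 with low pkd1l2a, 2.95 and 3.11 with low pkd1l2a at matched depth and without doublets, 2.62 at matched depth alone and 2.85 as a mean over cells. In the order of the limit on genes, no doublets, low pkd1l2a, low pkd1l2a at matched depth, low pkd1l2a without doublets and the mean over cells, spindle genes had 2.83, 2.57, 2.97, 2.74, 3.06 and 2.83, and passenger and cytokinesis genes 3.19, 2.89, 3.56, 3.19, 3.58 and 3.22. DNA replication genes had 0.55 and 0.078 with a mitotic sum of at least 3 and 10, 0.12 on thinned cells, and 0.081 and -0.049 with low pkd1l2a and with it at matched depth. Without doublets Hedgehog genes had 0.61, proneural genes -1.16 and neuronal genes -1.39. Neuronal genes had -1.37 with the limit on genes, and -0.23 and -0.22 with low pkd1l2a and with it at matched depth. Notch receptors and effectors had -0.22 with low pkd1l2a, -0.21 with it and without doublets, and -0.14 as a mean over cells. The causes were not tested. Of 278 alternative values 224 stayed close to the reported one, by a 1.5-fold limit for numbers of genes and the 95% interval of the median or share for the others, and no list median past 2-fold changed sign. The medians nearest 0, those of DNA replication, Notch receptors and effectors, patterning and cell cycle exit, crossed 0 under some alternatives. No paired analysis was possible because each stage has 1 library and no value comes from a test. Genes with few UMIs limit what can be said of single factors, and shares at 2000 UMIs miss rare transcripts.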
